A study of Mus musculus with 6 samples.

Results

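The interferon response genes are genes whose transcription is raised by interferons, and 35 of them were listed by name, 20 grouped as type I and 15 as interferon gamma targets. A listed gene counted as measured where at least 1 probe set of the array carried its symbol and no other, and the probe set of highest mean signal over the 6 arrays stood for it. By this rule 31 genes were measured, 17 type I and 14 gamma targets, of 12393 genes named on the array. Isg15, Ifi44, Xaf1 and Tgtp1 had no such probe set, so their levels were not analysed, but their promoters were searched for motifs. The split is one of emphasis, since many of these genes answer to both.

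The study compared the aorta of C57BL/6J mice, an inbred strain prone to obesity, on a high fat diet with the aorta of C57BL/6J mice on chow, with 3 arrays per diet. Each array held RNA from a pool of 3 aortas cleaned of adventitia and periaortic fat, so n = 3 pools per diet throughout and no value belongs to a single animal. Feeding with the high fat diet went on for 16 to 18 weeks. High fat replicates 2 and 3 were males that started it when 10 weeks old, whereas high fat replicate 1 was labelled as 16 to 20 weeks old, with no sex given. The labels do not settle whether this was the age at collection. Chow replicates 2 and 3 were males of 26 to 28 weeks, and chow replicate 1 was male with no age given. The labels describe the pools as independent, and a p-value here reflects the variation among pools.

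Type I interferons signal through the receptor chains Ifnar1 and Ifnar2 and the kinases Jak1 and Tyk2. These lead to the complex ISGF3, which includes Stat2 and Irf9 and binds the interferon-stimulated response element in the promoters of antiviral genes. Interferon gamma, made mostly by T and NK cells, signals through Ifngr1, Ifngr2, Jak1 and Jak2 to promoters with the gamma-activated site, and it raises Irf1, GTPases of cell-autonomous defence and the machinery of antigen presentation. In the artery wall, smooth muscle cells, endothelial cells and macrophages can all respond.

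The values are MAS5 signals, which summarise the probes of a probe set on a linear scale without a shared unit between probe sets. The level of a gene was therefore compared between arrays and not with other genes. Sums over marker lists, given below, add such signals, so the probe sets of high signal weigh most in them. The median signal of an array lay between 58.4 and 66.6. Across all probe sets, high fat replicate 3 had a mean correlation of 0.965 with the other arrays, and high fat replicate 2 had the lowest of the 6 at 0.953. The smooth muscle actin gene Acta2 had signals of 7181.1 to 9544.8 on the 6 arrays, which fits the tissue label, while Ucp1, a gene of brown adipocytes, had 2121.6 to 3664.2 although the fat around the vessel had been removed. The female transcript Xist had 43.6 to 99.9 and the Y-linked Eif2s3y had 62.6 to 98.9, and neither set a pool apart.

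The comparison asked which genes differed in the aorta after a high fat diet. No interferon response gene passed an adjusted p of 0.05 (limma, Benjamini-Hochberg adjustment over 13575 probe sets, of which 0.0737% passed). Means were higher on high fat diet for 28 of the 31 members and the median log2 fold change was 0.51, beside 53.9% higher means and a median of 0.03 over all 12393 genes. For type I targets the median was 0.73, with 15 of 17 higher. For gamma targets it was 0.35, with 13 of 14 higher. The difference was carried unequally by the 3 high fat pools: replicate 3 was high, replicate 2 lay between, and replicate 1 lay among the chow arrays.

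Of the 31 members, 28 passed the filter on low signals. It kept the probe sets whose mean of log2(signal + 6) was above the value for a signal of 40.7. Among these 28, 7 had an unadjusted p under 0.05 in the direction of higher means on high fat diet, beside 3.92% of all probe sets tested, and 0 had one in the other direction, beside 3.11%. The 7 were Irf7, Bst2, Usp18, Rtp4, Irf9, Psmb10 and Iigp1. All 3 high fat arrays lay above all 3 chow arrays for 6 of the 28, beside 6.26% of all probe sets, and below them for 0, beside 6.08%. The 6 were Irf7 among type I targets and Irf8, Gbp2, Psmb9, Psmb10 and Tap2 among gamma targets.

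The high fat pools differed widely among themselves. The signal of high fat replicate 3 exceeded every chow array for 29 of the 31 members, beside 21.5% of all genes. High fat replicate 2 did so for 22, beside 39.4% of all genes, and high fat replicate 1 for 6, beside 28.1%. High fat replicate 3 was the highest of the 6 arrays for 22 members, 14 of 17 type I and 8 of 14 gamma targets, whereas it was highest for 11.6% of all genes. As a log2 deviation from the chow mean, the median type I target stood at -0.07, 0.54 and 1.46 in high fat replicates 1, 2 and 3 and between -0.06 and 0.07 in the chow replicates. The median gamma target stood at 0.06, 0.25 and 0.71 in the same high fat replicates and between -0.01 and 0.02 in the chow replicates. The medians of all genes lay between -0.03 and 0.10 on the 6 arrays. In bulk RNA, a change in the number of responding cells and a change in the RNA per cell cannot be told apart.

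**Figure D1:**
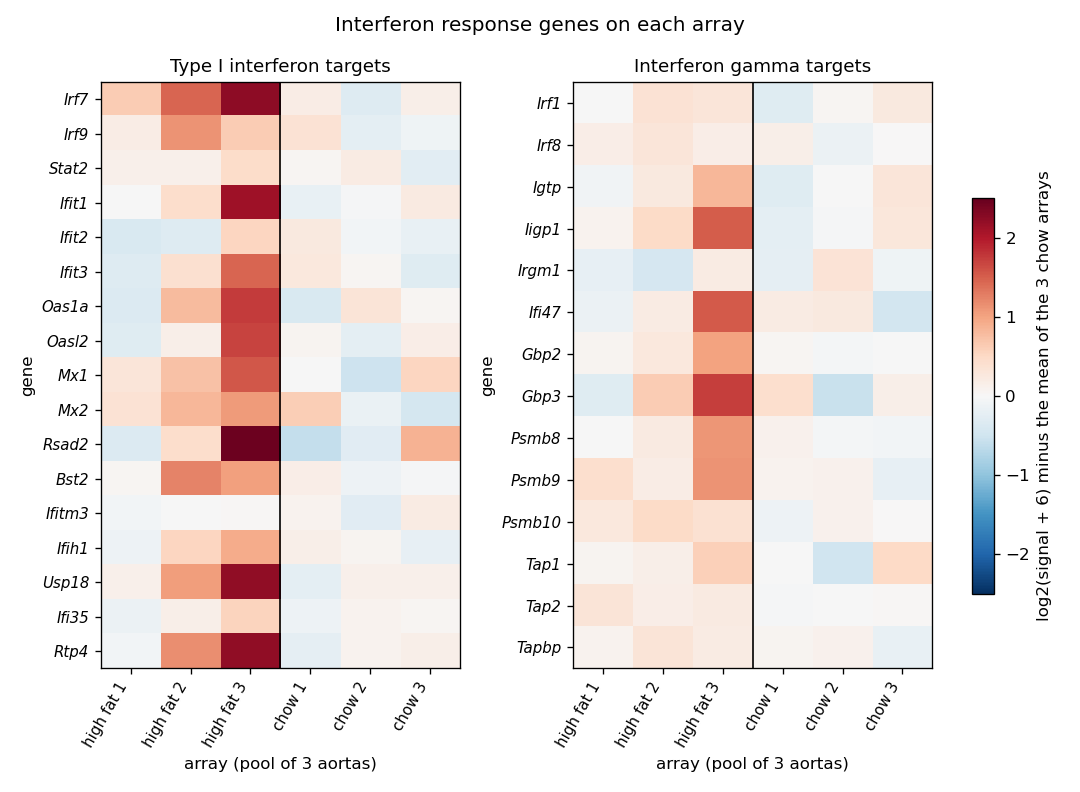
Each cell gives log2(signal + 6) of a member (rows) on an array (columns, high fat arrays left of the line and chow arrays right of it) minus the mean of the 3 chow arrays, for 17 type I targets on the left and 14 gamma targets on the right. Red cells, above the chow mean, fill the column of high fat replicate 3, while high fat replicate 1 looks much like the chow arrays.

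Irf7, the transcription factor that amplifies the type I response, had the smallest p of the members. Its signals were 120.4, 217.8 and 380.1 on the high fat arrays, against 86.9, 59.6 and 84.2 on the chow arrays. The diets did not overlap, and the high fat pools spread over a far wider range than the chow pools. The log2 fold change was 1.44 ± 0.34 (SE), with an adjusted p of 0.353 by limma. Without high fat replicate 1 it was 1.84 and passed (adjusted p = 0.0306), and without high fat replicate 3 it was 1.04.

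Irf9 and Stat2, subunits of ISGF3, had smaller differences. Irf9, its DNA-binding subunit, had 65.3, 130.8 and 91.2 on the high fat arrays, against 74.7, 47.3 and 52.2 on the chow arrays. High fat replicate 2 was the highest here and the diets overlapped. The log2 fold change was 0.64 ± 0.27 (adjusted p = 0.676, limma). Stat2 had 32.4, 32.5 and 42.5 on the high fat arrays, against 30.7, 34.9 and 23.4 on the chow arrays, under the filter. Its log2 fold change was 0.23, and that of a further Stat2 probe set, also under the filter, was -0.05.

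Usp18 removes ISG15 from proteins and restrains signalling at the type I receptor. Its signals were 53.0, 105.6 and 247.5 on the high fat arrays, against 40, 53.1 and 53.0 on the chow arrays. High fat replicate 1 lay level with chow, and high fat replicate 3 was 5.08 times the chow mean. The log2 fold change was 1.13 ± 0.42 (adjusted p = 0.618, limma), and 0.58 without high fat replicate 3. Rtp4, an interferon-induced chaperone of certain receptors at the cell surface, had the same order of high fat arrays. It had 57.3, 142.4 and 301.2 on the high fat arrays, against 50.6, 64.2 and 67.4 on the chow arrays, a log2 fold change of 1.10 ± 0.44 (adjusted p = 0.646, limma) that was 0.55 without high fat replicate 3. A further Rtp4 probe set had signals of 1.8 to 8.1 on the 6 arrays, near the bottom of the scale.

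The antiviral effectors were 10 measured genes, and 8 of them averaged higher on high fat diet. Their median log2 fold change was 0.74. Bst2, or tetherin, which holds budding virus at the cell surface, had 98.4, 233.0 and 199.2 on the high fat arrays, against 107.3, 86.5 and 92.4 on the chow arrays. High fat replicates 2 and 3 were about alike and high fat replicate 1 lay inside the chow range. Its log2 fold change was 0.77 ± 0.28 (adjusted p = 0.594, limma).

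Ifit1, which binds viral RNA that lacks the host cap methylation, had 69.2, 97.5 and 326.2 on the high fat arrays, against 60.8, 68.2 and 83.2 on the chow arrays. A single high fat array thus stood far above the rest, at 4.61 times the chow mean. The log2 fold change of 0.85 ± 0.44 (adjusted p = 0.745, limma) was 0.21 without that array. Oas1a, which makes the oligoadenylates that activate RNase L, had 74.1, 168.7 and 335.1 on the high fat arrays, against 71.9, 121.2 and 98.6 on the chow arrays. Its log2 fold change of 0.73 ± 0.42 (adjusted p = 0.765, limma) was 0.23 without high fat replicate 3.

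Rsad2, or viperin, an antiviral enzyme of the endoplasmic reticulum, is described for its size of change in high fat replicate 3, which was seen before it was chosen. It had 155.6, 268.1 and 1107 on the high fat arrays, against 129.3, 160.7 and 367.6 on the chow arrays. Chow replicate 3 was above high fat replicates 1 and 2, so the diets overlapped widely, and the adjusted p was 0.807 (limma). Both further Rsad2 probe sets were also highest in high fat replicate 3, at 227.3 beside 47.8 to 68.8 on chow and at 374.2 beside 48.5 to 79.7 on chow. Their log2 fold changes were 0.94 and 0.80, with adjusted p-values of 0.633 and 0.807 (limma). Unadjusted, their p-values were 0.0244 and 0.183, beside 0.181 for the probe set that stood for the gene (limma).

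Not every type I target followed this order. Ifitm3, which blocks virus entry from endosomes, had 1620.3, 1687.1 and 1731.4 on the high fat arrays, against 1807.2, 1392.7 and 1965.1 on the chow arrays. The high fat values lay wholly within the chow range, and the log2 fold change was -0.02 with a 95% interval of -0.34 to 0.29. Ifit2, a relative of Ifit1, had 55.9, 58.7 and 111.4 on the high fat arrays, against 89.6, 71.3 and 64.7 on the chow arrays, a log2 fold change of -0.05 with a 95% interval of -0.64 to 0.53. High fat replicate 3 was again the highest array, but the other high fat arrays were the lowest.

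Among the remaining type I targets that passed the filter, Ifit3, Oasl2, Ifih1 and Ifi35 were each highest in high fat replicate 3. They ranged there from 1.49 to 3.48 times the chow mean, and their log2 fold changes were 0.52, 0.51, 0.45 and 0.19. Ifih1 senses long double-stranded RNA. Without high fat replicate 3 the log2 fold change was 0.04 for Ifit3, -0.08 for Oasl2, 0.21 for Ifih1 and 0.00 for Ifi35. Mx1 and Mx2, dynamin-like antiviral GTPases whose genes are defective in most laboratory strains, were under the filter. Mx1 had 15.9, 23.7 and 46.3 on the high fat arrays, against 11.6, 6.4 and 19.7 on the chow arrays, and Mx2 had 28.1, 41.3 and 49.7, against 34.8, 17.7 and 13.5.

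**Figure D2:**
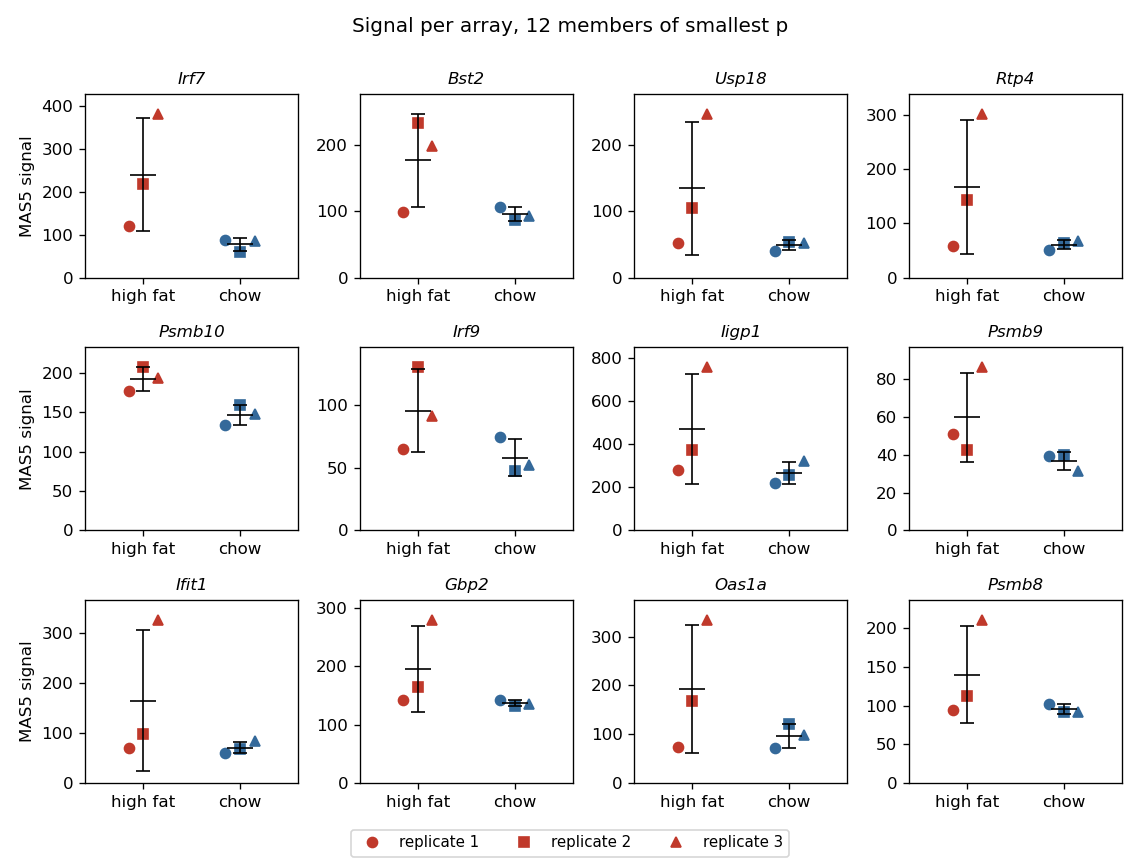
MAS5 signal (vertical axes, starting at 0) on each high fat array (red) and chow array (blue) for the 12 members of smallest unadjusted p, with marker shape giving the replicate number and black bars the mean ± SD of 3 pools. In 9 of the 12 panels the triangle of high fat replicate 3 is the highest point, while Bst2, Psmb10 and Irf9 peak in high fat replicate 2.

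The promoters of members with high signals in high fat replicate 3 are shown because the binding element of the type I response can be read in them. RefSeq promoter windows (build GRCm38.p6, 250 bases before to 50 after the start) were found for 29 of the 35 listed genes. A core of the interferon-stimulated response element, GAAA and a second GAAA with any 2 bases between them, was searched on both strands, and so was the gamma-activated site TTCNNNGAA, which reads alike on both. The response element was in the windows of 14 of the 29 genes (48.3%), 9 of 16 type I and 5 of 13 gamma targets, beside 3.99% of all 27025 genes and 3.44% of all promoters in the table. TTCNNNGAA was in 10 of the 29 (34.5%), 5 of 16 type I and 5 of 13 gamma targets, beside 9.55% of all genes and 8.3% of all promoters. Below are the 160 bases before the start of type I targets, with the letters of either motif in capitals, where TTTC marks a match read on the opposite strand. They lie at chr19:34640729-34640888 (plus strand) for Ifit1, chr19:34583369-34583528 (plus strand) for Ifit3, chr12:26456453-26456612 (minus strand) for Rsad2, chr5:120907526-120907685 (minus strand) for Oas1a and chr8:71537473-71537632 (minus strand) for Bst2.
Ifit1: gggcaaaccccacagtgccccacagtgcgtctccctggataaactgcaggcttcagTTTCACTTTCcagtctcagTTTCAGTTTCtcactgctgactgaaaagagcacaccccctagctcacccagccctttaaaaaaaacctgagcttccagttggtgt
Ifit3: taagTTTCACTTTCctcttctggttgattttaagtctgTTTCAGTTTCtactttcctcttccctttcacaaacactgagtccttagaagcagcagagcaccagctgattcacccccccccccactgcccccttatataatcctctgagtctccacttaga
Rsad2: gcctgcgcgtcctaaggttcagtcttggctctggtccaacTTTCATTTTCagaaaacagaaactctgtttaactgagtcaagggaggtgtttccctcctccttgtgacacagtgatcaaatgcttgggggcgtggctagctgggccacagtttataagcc
Oas1a: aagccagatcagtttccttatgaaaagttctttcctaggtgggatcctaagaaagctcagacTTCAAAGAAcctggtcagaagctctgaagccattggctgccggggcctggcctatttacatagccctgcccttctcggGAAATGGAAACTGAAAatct
Bst2: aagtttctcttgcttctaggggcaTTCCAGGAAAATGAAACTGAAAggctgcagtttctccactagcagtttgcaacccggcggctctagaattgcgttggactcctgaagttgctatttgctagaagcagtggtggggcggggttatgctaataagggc
In Bst2 the capitals of both motifs run into each other, and in Oas1a the response element lies next to the start, with the gamma-activated letters farther upstream. The windows of Irf7 and Irf9 held neither set of letters, which says only that the letters are not in these windows. The 12 measured members with the response element had a median log2 deviation of 1.01 in high fat replicate 3, and the 13 without it had 0.59, with overlapping ranges of 0.02 to 2.45 and 0.17 to 2.24.

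With all 6 arrays the median of the gamma targets was lower than that of the type I targets, and both were close without high fat replicate 3 (0.18 and 0.21). The difference between the classes was not tested. Iigp1, an immunity-related GTPase that attacks the vacuoles of intracellular parasites, had 280.4, 372.0 and 761.1 on the high fat arrays, against 220.3, 258.7 and 321.6 on the chow arrays. High fat replicate 1 lay within the chow range and high fat replicate 3 was 2.85 times the chow mean. Its log2 fold change was 0.69 ± 0.31 (adjusted p = 0.693, limma), and 0.29 without high fat replicate 3. A further Iigp1 probe set had a log2 fold change of 0.34.

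The related GTPases had different orders of arrays. Igtp and Ifi47 were also highest in high fat replicate 3, at 240.9 and 147.0, with log2 fold changes of 0.33 and 0.53. Irgm1, which regulates the other GTPases of its family, had 108.0, 92.4 and 145.2 on the high fat arrays, against 106.1, 160.2 and 116.9 on the chow arrays. Its highest array was a chow array, and the log2 fold change was -0.14 with a 95% interval of -0.62 to 0.34.

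The guanylate-binding proteins are large GTPases that coat pathogen vacuoles. Gbp2 had 142.9, 165.1 and 280.3 on the high fat arrays, against 142.2, 132.7 and 136.0 on the chow arrays. The diets did not overlap, but high fat replicate 1 was above the highest chow array by less than 1 unit of signal. The log2 fold change was 0.44 ± 0.23 (adjusted p = 0.745, limma) and was 0.16 without high fat replicate 3. A further Gbp2 probe set, which can bind related transcripts, had 112, 146.7 and 157.5 on the high fat arrays, against 128.8, 97.6 and 122.7 on the chow arrays. There the diets overlapped, and the log2 fold change was 0.24. Gbp3 had 40, 82.0 and 182.0 on the high fat arrays, against 69.2, 32.6 and 56.4 on the chow arrays, with the lowest high fat array inside the chow range.

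Psmb8, Psmb9 and Psmb10 encode the catalytic subunits that replace the constitutive ones in the immunoproteasome. Psmb10 had 177.8, 208.0 and 193.3 on the high fat arrays, against 134.0, 158.9 and 148.4 on the chow arrays. Here all 3 high fat pools were close to each other and above chow, and the log2 fold change of 0.38 ± 0.16 (adjusted p = 0.667, limma) was also 0.38 without high fat replicate 3. Psmb9 had 50.8, 42.4 and 86.7 on the high fat arrays, against 39.3, 40 and 31.2 on the chow arrays, a log2 fold change of 0.57 ± 0.28 (adjusted p = 0.732, limma). Psmb8 had 94.6, 112.8 and 211.0 on the high fat arrays, against 102.5, 92.0 and 91.0 on the chow arrays, a log2 fold change of 0.44 ± 0.26 (adjusted p = 0.776, limma). The Psmb8 difference was 0.11 without high fat replicate 3, and that of Psmb9 was 0.30.

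Tap1 and Tap2 form the transporter that carries peptides into the endoplasmic reticulum, and Tapbp, or tapasin, bridges it to MHC class I. Tapbp had 571.2, 671.3 and 622.7 on the high fat arrays, against 562.1, 581.3 and 474.5 on the chow arrays. The diets overlapped at high fat replicate 1 (log2 fold change 0.21 ± 0.14, adjusted p = 0.805, limma), and a further Tapbp probe set had a log2 fold change of 0.08. Tap2 had 120.3, 106.6 and 111.9 on the high fat arrays, against 93.3, 94.6 and 96.2 on the chow arrays. The diets did not overlap for Tap2, with a log2 fold change of 0.24 (adjusted p = 0.805, limma). The log2 fold changes without high fat replicate 3 were 0.20 for Tapbp and 0.24 for Tap2. Tap1 had a log2 fold change of 0.27, and its 3 other probe sets had signals of at most 21.0.

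Irf1 and Irf8 are transcription factors of the gamma response. Irf1 had 241.8, 314.8 and 300.0 on the high fat arrays, against 196.3, 252.4 and 287.8 on the chow arrays. Irf8, which is also a factor of myeloid cells, had 52.7, 58.5 and 52.9 on the high fat arrays, against 51.8, 41.0 and 46.4 on the chow arrays. Neither stood out in high fat replicate 3, and their log2 fold changes were both 0.22. A further Irf8 probe set, under the filter, had 30.8, 48.4 and 43.5 on the high fat arrays, against 20.6, 39.5 and 55.6 on the chow arrays. There the diets overlapped and a chow array was the highest.

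Gamma target promoters are printed likewise for Igtp, Gbp2 and Psmb8, highest in high fat replicate 3, and for Irgm1, highest on a chow array. They lie at chr11:58199396-58199555 (plus strand) for Igtp, chr11:48871421-48871580 (minus strand) for Irgm1, chr3:142620503-142620662 (plus strand) for Gbp2 and chr17:34198035-34198194 (plus strand) for Psmb8.
Igtp: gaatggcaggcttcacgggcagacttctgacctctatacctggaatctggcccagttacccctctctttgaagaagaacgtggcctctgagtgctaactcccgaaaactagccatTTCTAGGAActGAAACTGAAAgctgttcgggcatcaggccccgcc
Irgm1: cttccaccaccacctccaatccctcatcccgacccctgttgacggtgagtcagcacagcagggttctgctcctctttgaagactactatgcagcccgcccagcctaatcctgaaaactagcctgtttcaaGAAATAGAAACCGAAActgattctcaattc
Gbp2: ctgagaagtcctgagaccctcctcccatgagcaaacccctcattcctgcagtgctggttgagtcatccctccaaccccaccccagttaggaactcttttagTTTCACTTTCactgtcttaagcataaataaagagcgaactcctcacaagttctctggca
Psmb8: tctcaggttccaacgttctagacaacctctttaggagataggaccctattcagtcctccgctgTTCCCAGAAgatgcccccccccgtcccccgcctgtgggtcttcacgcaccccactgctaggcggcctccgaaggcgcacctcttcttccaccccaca
Igtp carried both motifs close to each other before its start, Gbp2 and Irgm1 carried the response element, and Psmb8 carried the gamma-activated letters. Psmb9 and Tap1 are divergent neighbours on chromosome 17 whose promoter windows share 275 bases, and neither window held either motif. The promoters printed for both classes were all ones with a motif. The windows of Ifi47 and Oasl2, which were also highest in high fat replicate 3, held neither.

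**Figure D3:**
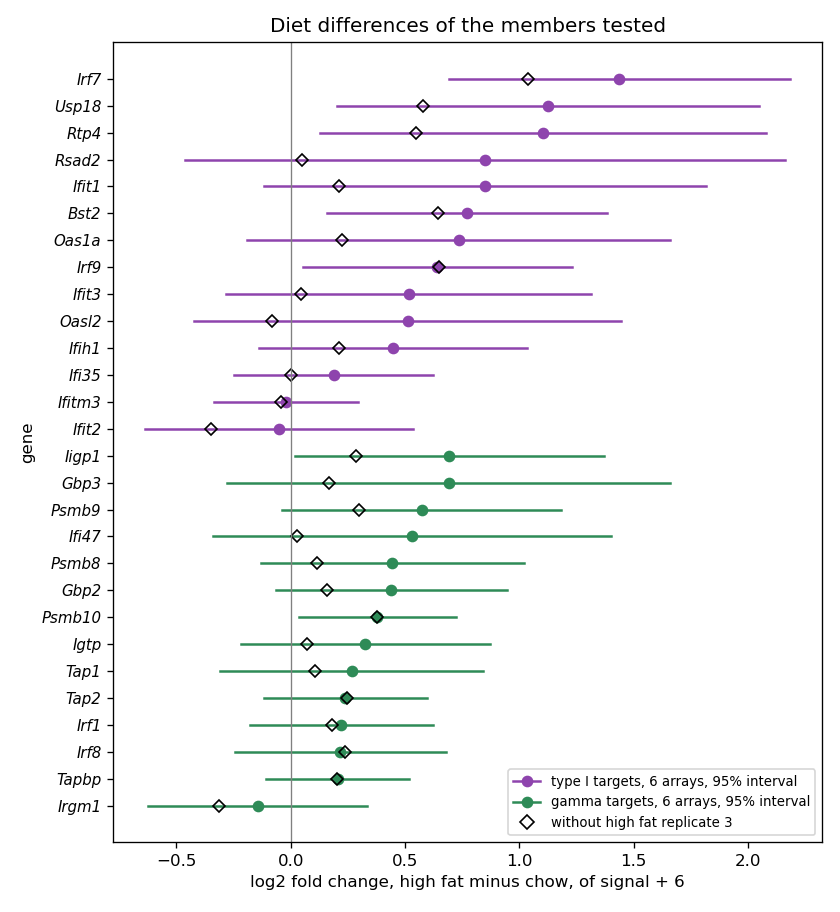
The log2 fold change of signal + 6, high fat minus chow, is drawn for the 28 members tested, as a filled circle with its 95% interval from limma over 6 arrays (type I targets purple, gamma targets green) and as an open diamond without high fat replicate 3. For Irf7 both values lie above 1, the diamonds of Ifit1, Oas1a and Rsad2 drop towards 0, and those of Psmb10, Tap2, Tapbp and Irf9 stay at their circles.

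The medians depended on which high fat pool was left out. Without high fat replicate 3 the type I median was 0.21 and the gamma median 0.18, and 1 member, Irf7, had an unadjusted p under 0.05, beside 8.56% of all probe sets in that fit. Without high fat replicate 1 the medians were 0.95 and 0.49, and 17 members had an unadjusted p under 0.05, all higher, beside 8.32% of all probe sets. Without high fat replicate 2 they were 0.70 and 0.35, and 4 members had such a p, beside 4.53%. The SD of the log2 values was larger among high fat than among chow pools for 23 of the 31 members, beside 56.1% of all genes. Its median was 0.64 on high fat diet and 0.24 on chow for type I targets, and 0.39 and 0.22 for gamma targets. Over all genes it was 0.25 and 0.21.

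Other genes of the interferon pathway were described from a list of 50 names, of which 39 were measured. It held ligands, receptors, kinases, inhibitors and sensors, and also MHC class I genes and interferon-induced chemokines. Its figures are therefore not those of upstream signalling genes alone. The list had a median log2 fold change of 0.00, 19 of the 39 had higher means on high fat diet, beside 53.9% of all genes, and 0 passed the adjusted threshold in limma. Of the 23 tested, 3 had an unadjusted p under 0.05, all higher, beside 3.92% of all probe sets. The 9 interferon genes measured were all under the filter. Ifng had 16.2, 27.3 and 9.5 on the high fat arrays, against 22.5, 13.8 and 12.5 on the chow arrays, and Ifnb1 had 38.2, 35.2 and 22.7, against 33.5, 34.1 and 34.8. Neither was high in high fat replicate 3. The interferon alpha genes Ifna1, Ifna2, Ifna4, Ifna5, Ifna9, Ifna11 and Ifnab had signals of 2.8 to 50.1 on the 6 arrays, with 3 of the 7 read by probe sets that can bind related transcripts. Of the 9 interferon genes, 1 was highest in high fat replicate 3. This was Ifna9, with 6.2, 7.4 and 11.9 on the high fat arrays, against 4.5, 6.0 and 4.5 on the chow arrays. The log2 fold changes of the 9 ran from -0.45 (Ifnab) to 1.04 (Ifna2), without a test.

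Of the receptor chains, Ifngr1 had 515.0, 668.5 and 270.1 on the high fat arrays, against 313.3, 310.1 and 258.5 on the chow arrays. Its lowest high fat array was the one in which the targets were highest, and its log2 fold change was 0.62 ± 0.27 (adjusted p = 0.693, limma). The other chains, Ifnar1, Ifnar2 and Ifngr2, had log2 fold changes of 0.00, 0.04 and -0.05. The kinases Jak1, Jak2 and Tyk2 had -0.15, -0.17 and -0.02.

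Ptpn6, the phosphatase SHP1 of blood cells that dampens JAK signalling, had the smallest p of the list. It had 143.2, 148.7 and 121.9 on the high fat arrays, against 94.2, 78.0 and 96.2 on the chow arrays. The diets did not overlap (log2 fold change 0.59 ± 0.17, adjusted p = 0.497, limma). The probe sets of Ptpn6 and Socs3 can bind related transcripts. Irf5, a factor downstream of Toll-like receptors, had 0.35 and Socs3, an inhibitor of JAK kinases, had -0.35 as log2 fold change, with adjusted p-values of 0.776 and 0.821 by limma.

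The MHC class I genes, fed by the peptide transporter, leaned the same way as the members. H2-D1 had 1632.8, 2480.6 and 2537.0 on the high fat arrays, against 1814.5, 1552.6 and 1648.8 on the chow arrays, a log2 fold change of 0.38 ± 0.17 (adjusted p = 0.704, limma). H2-K1 had 2029.2, 2957.9 and 3433.1 on the high fat arrays, against 1866.0, 2191.6 and 2417.8 on the chow arrays, a log2 fold change of 0.35 ± 0.19 (adjusted p = 0.749, limma). In both, high fat replicates 2 and 3 were above every chow array and high fat replicate 1 was not. Their probe sets can bind transcripts of related class I genes, so the gene behind these signals is uncertain. B2m, also in this group, had 2284.7, 2923.5 and 3013.2 on the high fat arrays, against 2809.0, 2292.7 and 2480.3 on the chow arrays. Its log2 fold change was 0.11 (adjusted p = 0.892, limma), and high fat replicate 1 was its lowest array. The chemokine genes Cxcl9 and Cxcl10, named after their values were seen, were under the filter on average. In high fat replicate 3 they had 105.7 and 88.4, while the other 5 arrays had at most 38.1 and 23.8. The third chemokine of the list, Cxcl11, was also under the filter and was lowest in high fat replicate 3, with 34.9, 54.9 and 16 on the high fat arrays, against 36.6, 31.8 and 31.6 on the chow arrays.

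Markers of other cells were set beside these values. Of the 18 macrophage markers, 17 had higher means on high fat diet, beside 53.9% of all genes, with a median log2 fold change of 0.54. Of the 16 tested, 10 had an unadjusted p under 0.05, all higher, beside 3.92% of all probe sets, and 0 passed the adjusted threshold (limma). That is a larger share than the 7 of 28 members. The signals of the 18 summed to 4417.6, 7180.7 and 5543 on the high fat arrays, against 4252.2, 3232.7 and 4337.5 on the chow arrays. The macrophage sum was thus highest in high fat replicate 2, while most interferon targets were highest in high fat replicate 3. Fcer1g, the Fc receptor subunit with the smallest p of these markers, had 76.7, 125.4 and 150.2 on the high fat arrays, against 63.5, 38.4 and 43.9 on the chow arrays. The 12 cardiac muscle markers summed to 1102.6, 8396.2 and 6381.5 on the high fat arrays, against 2913.2, 4305.6 and 1040.7 on the chow arrays. This sum was lowest in high fat replicate 1 and chow replicate 3, and highest in high fat replicates 2 and 3. Ryr2, a cardiac calcium channel of the sarcoplasmic reticulum, had the smallest p of these at 0.0659 (unadjusted, limma). The part of macrophage or heart muscle RNA in the interferon values was not tested.

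The sums of the T and NK cell, B cell and dendritic cell markers were all highest in high fat replicate 2. The order of the other arrays differed between these lists. Of 14 T and NK cell markers measured, 11 were under the filter, among them Cd3d, Cd3e, Cd3g, Cd4 and Cd8a, and their sum was 617.3 to 781.3 on the high fat arrays, against 542.7 to 755.8 on the chow arrays. Much of that sum was Zap70, a T cell receptor kinase, with 256.8 to 301.7 on the high fat arrays, against 182.5 to 429.7 on the chow arrays. The 6 B cell markers summed to 489.5, 1152.1 and 451.5 on the high fat arrays, against 359.6, 377.4 and 553.5 on the chow arrays, of which 898.9 in high fat replicate 2 was the immunoglobulin gene Ighm. The 6 dendritic cell markers summed to 234.9 to 290.9 on the high fat arrays, against 240.1 to 263.3 on the chow arrays. None of these sums was highest in high fat replicate 3.

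Of the remaining lists, the brown adipocyte and endothelial sums were also highest in high fat replicate 2. The white adipocyte sum was highest in chow replicate 3 and the smooth muscle sum in chow replicate 2. The 7 brown adipocyte markers summed to 10328.3 to 12535 on the high fat arrays, against 6716.9 to 8858.8 on the chow arrays, and the 5 white adipocyte markers to 2942.2 to 3094.7, against 2531.9 to 3541.7. All 7 brown adipocyte markers had higher means on high fat diet, beside 53.9% of all genes. Of these 7, 5 had an unadjusted p under 0.05 (limma), beside 3.92% of all probe sets, and 0 passed the adjusted threshold. The part of brown fat RNA in the interferon values was not tested either. The 9 smooth muscle markers summed to 25367 to 26819.4 on the high fat arrays, against 24465.1 to 30895.7 on the chow arrays. The 8 endothelial markers summed to 1539.6 to 1870.3 on the high fat arrays, against 1520.1 to 1608.4 on the chow arrays. High fat replicate 3 had the lowest high fat sum in each of these 4 lists.

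**Figure D4:**
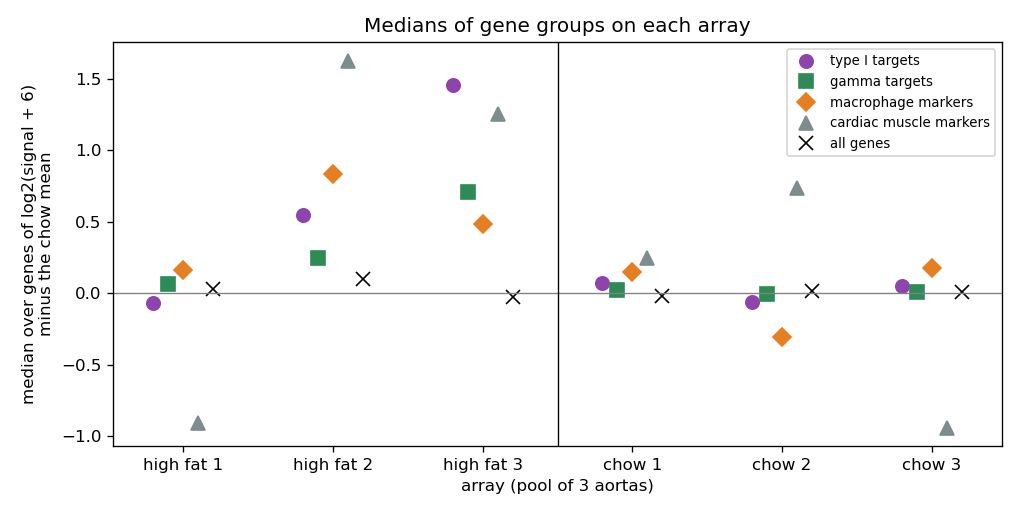
Points give the median over genes of log2(signal + 6) minus the chow mean (vertical axis) on each array (high fat left of the line, chow right of it) for type I targets, gamma targets, macrophage markers, cardiac muscle markers and all genes with 1 symbol. Type I targets reach 1.46 in high fat replicate 3, macrophage markers peak at 0.83 in high fat replicate 2, and all genes stay between -0.03 and 0.10.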

How the data were processed

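The deposited values are signal intensities, 1 per probe set and array, and MAS5 is named per the submitters' processing notes, for which the sources used here give neither version nor settings. Each array had a 2% trimmed mean of 150.05 and was not rescaled. Detection calls were not used, which leaves low signals and background mixed. Of 22690 probe sets, 64 controls were left out, and genes were named from the platform annotation, where 20380 probe sets had 1 symbol, 691 several and 1555 none. All 31 member symbols matched the RefSeq gene table (GRCm38.p6) by gene ID.

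Signals were transformed as log2(signal + 6), 6 being the 10th percentile of all signals, which understates changes of low genes. The 13575 probe sets with a mean above the 40th percentile were tested between diets in R 4.3.3 by limma 3.58.1 (lmFit, eBayes with a variance trend, two-sided, Benjamini-Hochberg adjustment, threshold 0.05). Fold changes of members under the filter came from a fit without it. With 3 pools against 3, an exact permutation test cannot go below 0.1 and was not used. The steps were tested on simulated data. The number of arrays limits the precision.

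The members and lists were chosen with earlier results of these data known. Values per array were given for the 12 members of smallest p and the 2 further members of each class nearest to no change. Other genes had them where stated or in passing, after their values were seen. The 6 pathway genes of smallest p, the ligands and the receptors had values per array, a range or only a fold change. The alternatives were the pseudocount, the filter, quantile normalization, the variance trend, array weights, a block on the replicate number, averaging the probe sets of each gene, and each array left out. Deviations of same-numbered arrays correlated at 0.03, 0.17 and -0.11, and those of differently numbered arrays at -0.16 to 0.14. With 3 arrays per diet this cannot settle whether the replicate numbers paired the pools. The main fit did not pair them. Python 3.11.15, pandas 2.3.3 and matplotlib 3.10.9 made tables and figures.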

Additional observations from a re-analysis of the deposited data

How the results depend on the processing

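No member passed the adjusted threshold in the 9 alternatives that kept all 6 arrays, or without any array but high fat replicate 1, whose removal let 1 member, Irf7, pass (range 0 to 1). The 7 members at an unadjusted p under 0.05 became 4 to 9 in the alternatives on all arrays. Array weights gave 4, beside 7.38% of all probe sets, and the replicate block gave 9, beside 7.87%. With single arrays left out the number was 1 to 17. Leaving out high fat replicate 3 gave 1, high fat replicate 2 gave 4 and high fat replicate 1 gave 17. Leaving out chow replicate 1 gave 3 and chow replicate 2 gave 4. The type I median lay between 0.55 and 0.76 in the alternatives on all arrays and between 0.21 and 0.95 with an array left out, and the gamma median between 0.31 and 0.36 and between 0.18 and 0.49. Over all probe sets the 10 that passed became 6 without a filter, 5 without a variance trend, 5 with the replicate block, and 5 to 16 with an array left out (5 on dropping high fat replicate 2, 5 on dropping chow replicate 2, 16 on dropping high fat replicate 1). Of the 31 measured members, 5 changed direction in at least 1 alternative: Oasl2 had -0.08 without high fat replicate 3, Tap1 -0.05 with its probe sets averaged, Ifitm3 had 0.0070 with array weights and -0.17 to 0.081 with an array left out, Ifit2 -0.35 to 0.11, and Irgm1 -0.32 to 0.023. The replicate block changed no call of a member. The causes were not tested. Without high fat replicate 3, Psmb9 was under the filter and had no test. The lack of detection calls limits what can be said of Mx1, Mx2, Stat2 and the interferon genes themselves.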
